A study of Mus musculus with 14 samples.

Results

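Reelin (Reln), its receptors Vldlr and Lrp8 (also called ApoER2) and the intracellular adaptor Dab1 make up the core of the reelin pathway. All 4 genes were found by symbol in a table of 32830 genes, and all 4 passed the filter on low values, a value of at least 10 in at least 2 libraries, which 22575 genes passed. RNA-seq libraries had been made from upper and deep layers of the cerebral cortex of 14-day-old Aldh1l1-GFP mice (strain SW). There were 3 libraries each of upper layer and deep layer astrocytes, 2 each of upper layer and deep layer non-astrocytes, and 2 each of upper layer and deep layer bulk tissue.

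Every group shared the strain, the age and the reporter, in which the promoter of Aldh1l1, a folate enzyme of astrocytes, drives green fluorescent protein. Astrocytes were the GFP-positive and non-astrocytes the GFP-negative live cells that a flow sorter collected after papain dissociation, with dead cells excluded by DAPI. Bulk tissue was not dissociated. The non-astrocyte fraction therefore held only those other cells that survived dissociation and the gate.

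Reelin is a large secreted glycoprotein that guides migrating neurons into the layers of the developing cortex. It is made first by Cajal-Retzius cells of the marginal zone and later by a subset of interneurons. Reelin binds Vldlr and Lrp8, members of a family of lipoprotein receptors. The receptors bring Dab1 to Src family kinases, which phosphorylate it, and phosphorylated Dab1 both recruits signalling proteins and is marked for degradation. Mice without Reln, without Dab1 or without both receptors have a similarly disordered cortex.

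The libraries held 18226457 to 30316765 reads in genes. Values are normalised read counts: the reads of a gene divided by the size factor of its library. The summed counts of 10 astrocyte markers were 1016450 to 1502490 in astrocytes, 26824 to 34562 in non-astrocytes and 201785 to 241159 in bulk tissue. Those of 10 neuronal markers were 1113 to 1922 in astrocytes, 6442 to 14274 in non-astrocytes and 246341 to 371017 in bulk tissue. Other cell types led the non-astrocytes. Sums of 6 mural cell markers were 3542 to 7680 in astrocytes, 205402 to 280433 in non-astrocytes and 7985 to 10296 in bulk tissue. Those of 6 microglial markers were 944 to 2478 in astrocytes, 123000 to 177938 in non-astrocytes and 5710 to 6773 in bulk tissue. Sums of 6 endothelial markers were 620 to 1116 in astrocytes, 27076 to 41326 in non-astrocytes and 3233 to 4070 in bulk tissue. Those of 6 oligodendrocyte precursor markers were 2950 to 4782 in astrocytes, 26636 to 60688 in non-astrocytes and 4853 to 8381 in bulk tissue. These cell types move with every comparison of astrocytes or bulk tissue with non-astrocytes given here, and their part in those results was not tested. Sums of 7 oligodendrocyte markers were 3637 to 6079 in astrocytes, 54019 to 153459 in non-astrocytes and 38736 to 151197 in bulk tissue. Oligodendrocytes thus move with comparisons of astrocytes with either other fraction, and their part was not tested either. In bulk tissue, 6 markers of deep layer neurons summed to 4410 and 5464 in upper layers, against 10550 and 11309 in deep layers. No label ties the libraries of a group to separate mice. The spread behind each p-value is that between libraries, and it may be technical.

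The 4 genes divided differently among the fractions. The ligand Reln was low in both sorted fractions and high in bulk tissue, Dab1 was high in astrocytes and low in non-astrocytes, Vldlr was higher in astrocytes than in non-astrocytes, and Lrp8 was lower. Between layers, 1 of the 4 genes was called: Reln was 4.18-fold higher in upper than in deep layer non-astrocytes. There it was the only gene called of 22575 (0.00443%), and the call was lost in a fit of those libraries alone. Reln had no called difference between layers in astrocytes or bulk tissue. Vldlr was called between layers of bulk tissue in some alternative fits only. Tests were limma fits on log2(value + 1) over the 22575 genes, a gene is called where its p-value adjusted by Benjamini and Hochberg's method over those genes is below 0.05, and folds are on that log2 scale.

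**Figure D1:**
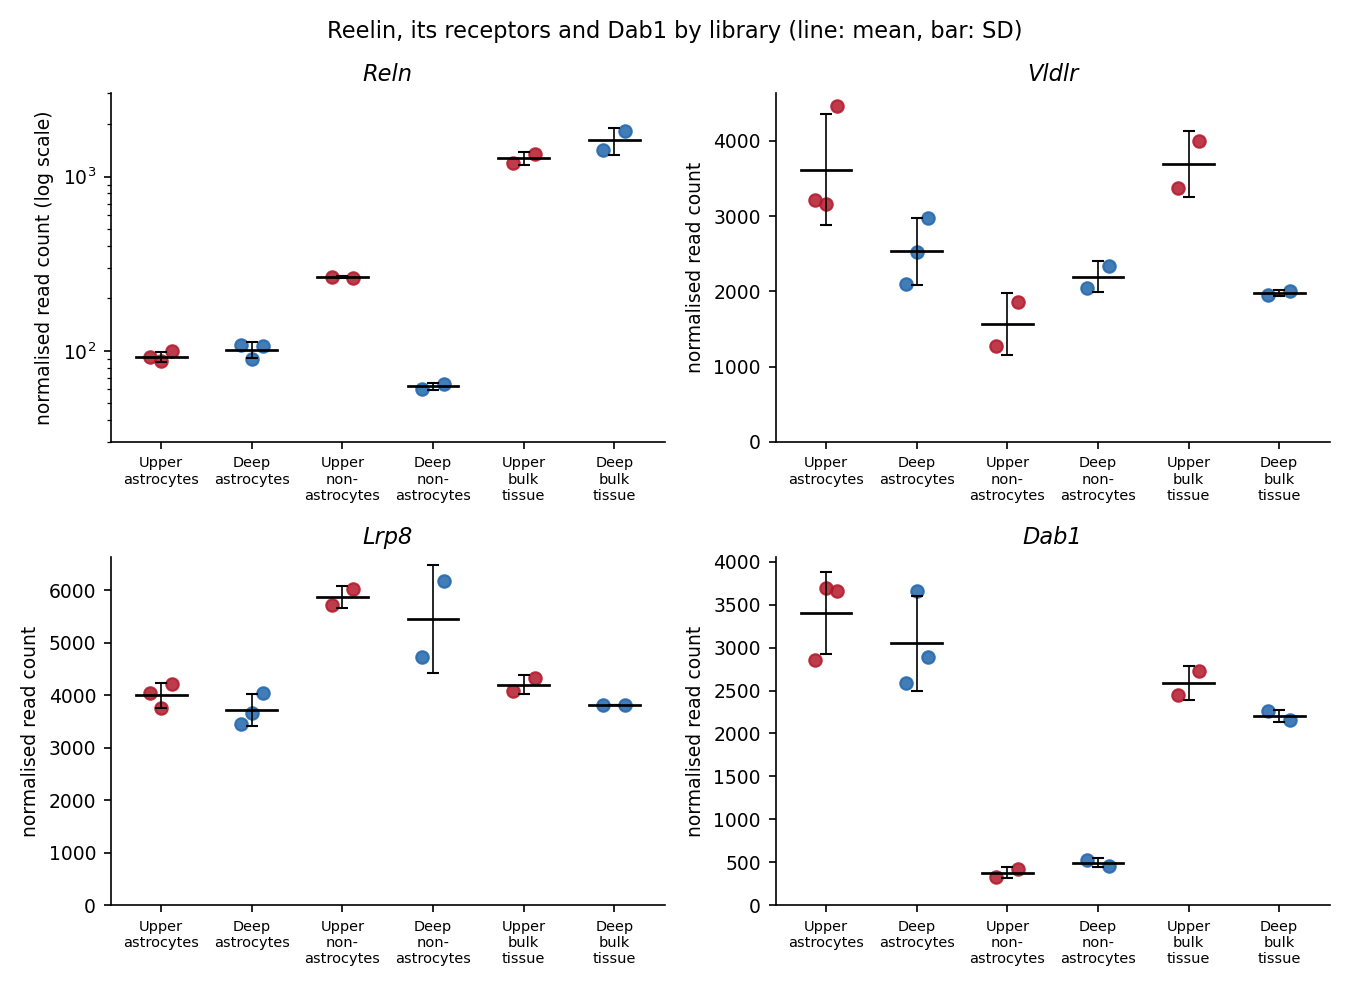
Normalised read counts of Reln, Vldlr, Lrp8 and Dab1 in each of the 14 libraries (points, upper layer red and deep layer blue), by fraction and layer, with the group means as lines and SDs as bars. The axis for Reln is logarithmic, where bulk tissue (1196 to 1820) stands far above both sorted fractions (60.7 to 266), and in the Dab1 panel astrocytes (2587 to 3687) stand above non-astrocytes (333 to 532).

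Reln (ENSMUSG00000042453) lies on the minus strand of chromosome 5, at chr5:21884454-22344702 in GRCm38, and 246 of its exonic bases are shared with Gm10475 on the other strand. Reln had normalised read counts of 91.7, 87.2 and 99.2 in upper layer astrocytes and 109, 89.4 and 107 in deep layer astrocytes. In non-astrocytes it had 266 and 263 in upper layers and 60.7 and 64.6 in deep layers. Bulk tissue had 1196 and 1346 in upper layers and 1412 and 1820 in deep layers. Bulk tissue thus held the 4 highest values, upper layer non-astrocytes came next, and all 6 astrocyte libraries lay between the upper and the deep layer non-astrocytes. Behind these values stood 63 to 101 reads in each astrocyte library, 71 to 347 in non-astrocytes and 1202 to 1970 in bulk tissue.

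Against bulk tissue, Reln was 14.6-fold lower in astrocytes (log2 difference -3.87, SE 0.14, adjusted p = 2.85e-12) and 11-fold lower in non-astrocytes (log2 difference -3.46, SE 0.15, adjusted p = 7.73e-11). Neither sorted fraction overlapped bulk tissue. The background is broad: 64.8% of genes tested were called between astrocytes and bulk tissue, where 2 of the 4 members were, and 61.6% between non-astrocytes and bulk tissue, where all 4 were. The neuronal marker sums given above were also lower in both sorted fractions than in bulk tissue, as were the sums of 12 interneuron markers, at 526 to 847 in astrocytes and 1656 to 2203 in non-astrocytes, against 10359 to 20053 in bulk tissue. In such mixtures fewer cells of a type and less RNA per cell cannot be told apart, and the part of these cells in the Reln difference was not tested.

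Averaged over both layers, Reln was 1.33-fold lower in astrocytes than in non-astrocytes (log2 difference -0.41, SE 0.14, adjusted p = 0.0178), in a comparison that called 66.3% of genes and all 4 members. The ranges overlapped, and the sign of the difference depended on the layer. In upper layers Reln averaged 92.7 ± 6.06 in astrocytes (SD, n = 3) and 265 ± 2.43 in non-astrocytes (SD, n = 2), 2.84-fold lower in astrocytes (log2 difference -1.51, limma adjusted p = 1.20e-05). In deep layers it averaged 102 ± 10.6 in astrocytes (SD, n = 3) and 62.6 ± 2.74 in non-astrocytes (SD, n = 2), 1.61-fold higher in astrocytes (log2 difference 0.68, limma adjusted p = 0.00852). These comparisons within a layer were added after the values were seen; they called 53.0% of genes in upper and 57.1% in deep layers. The deep layer call was lost when values were scaled to each library's total (log2 difference 0.56, adjusted p = 0.0635) and in a fit of the compared groups alone (adjusted p = 0.0894).

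Between layers, Reln was 4.18-fold higher in upper than in deep layer non-astrocytes (log2 difference 2.06, SE 0.22, 95% interval 1.60 to 2.53, adjusted p = 0.00248). It was the only gene called of the 22575 (0.00443%), where 871 had an unadjusted p below 0.05. edgeR and DESeq2, run on the recovered reads, called Reln too (adjusted p = 8.28e-04 and 4.38e-14), among 7 and 139 genes. The limma call was lost without upper layer non-astrocyte replicate 1 (adjusted p = 0.0515, log2 difference 2.05) and in a fit of those 4 libraries alone (adjusted p = 0.508).

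In astrocytes the layers overlapped in Reln, and the log2 difference of upper minus deep was -0.13, not called (95% interval -0.51 to 0.25, adjusted p = 0.806). In bulk tissue the upper layer libraries lay below the deep layer ones without overlap, but the log2 difference of -0.34 was not called (95% interval -0.80 to 0.13, adjusted p = 0.945). The layer difference itself was smaller in astrocytes than in non-astrocytes (log2 interaction -2.19, SE 0.28, adjusted p = 0.0285), where Reln was again the only gene called (0.00443%). It was larger in non-astrocytes than in bulk tissue (log2 interaction 2.40, SE 0.31, adjusted p = 0.0142), a comparison added after the values were seen that called 13 genes (0.0576%). This interaction uses the same non-astrocyte libraries as the one with astrocytes, so the 2 are not independent. Both interactions rest on few libraries: the first lost its call in 9 of 10 fits that left out 1 library (adjusted p up to 0.194) and the second in 7 of 8 (up to 0.136), with log2 values of -2.28 to -2.14 and 2.22 to 2.58.

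Several markers of Reln-producing cells were read beside this layer difference. Trp73, a transcription factor of Cajal-Retzius cells whose exons overlap Trp73os, had 22.3 and 16.2 normalised read counts in upper layer non-astrocytes, against 0.809 and 0 in deep layer non-astrocytes, and at most 2.35 in any other library. Lhx1, another Cajal-Retzius marker, had 17.7 and 1.80 in upper against 0 and 2.73 in deep layer non-astrocytes, and was at 0 in all astrocyte and bulk tissue libraries. The whole list of 6 Cajal-Retzius markers summed to 503 and 680 in upper layer non-astrocytes, against 471 and 614 in deep layer non-astrocytes, ranges that overlap. Ebf3 supplied most of those sums, with 381 and 599 in upper against 418 and 566 in deep layer non-astrocytes. In bulk tissue Ebf3 had 36.4 to 82.1. Nhlh2 had 53.7 and 44.9 in upper against 38.0 and 20.0 in deep layer non-astrocytes. Lhx5 had 14.6 and 13.5 in upper against 14.6 and 5.46 in deep layer non-astrocytes, and Calb2 had 13.8 and 5.39 against 0 and 20.0.

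Lamp5, a marker of neurogliaform interneurons that cortical pyramidal cells also express, had 207 and 277 in upper layer non-astrocytes against 51.8 and 35.5 in deep layer non-astrocytes. In bulk tissue Lamp5 also had more in upper layers, 4706 and 7002, against 1221 and 2080 in deep layers, where Reln did not. Ndnf, a marker of layer 1 interneurons, had 940 and 913 in upper layer non-astrocytes and 954 and 1004 in deep layer non-astrocytes. In bulk tissue Ndnf had 114 and 105 in upper layers and 134 and 117 in deep layers, so it was higher in non-astrocytes than in bulk tissue, where the other 11 interneuron markers were lower. The 12 interneuron markers summed to 1839 and 2203 in upper against 1656 and 1739 in deep layer non-astrocytes. Without Ndnf the other 11 summed to 1263 and 926 in upper against 785 and 652 in deep layer non-astrocytes. Sums over 6 markers of meningeal fibroblasts were 12526 and 20453 in upper against 8779 and 11126 in deep layer non-astrocytes, and over 7 of oligodendrocytes 54019 and 61466 in upper against 114375 and 153459 in deep layer non-astrocytes. The 10 general neuronal markers summed to 12452 and 14274 in upper against 6442 and 9131 in deep layer non-astrocytes, without overlap. Their sums in bulk tissue were also higher in upper layers, 281368 and 371017 against 246341 and 269147 in deep layers, where Reln was not higher. The part of these cell types in the Reln layer difference was not tested.

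Vldlr (ENSMUSG00000024924, plus strand, chr19:27216484-27254231 in GRCm38) encodes the very low density lipoprotein receptor. Vldlr had normalised read counts of 3213, 3163 and 4462 in upper layer astrocytes and 2093, 2523 and 2979 in deep layer astrocytes. Non-astrocytes had 1278 and 1855 in upper layers and 2047 and 2341 in deep layers. Bulk tissue had 3376 and 3999 in upper layers and 1949 and 2008 in deep layers. The 5 highest values all came from upper layers, 3 of astrocytes and 2 of bulk tissue, and the 2 lowest from upper layer non-astrocytes.

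Vldlr was 1.63-fold higher in astrocytes than in non-astrocytes (log2 difference 0.70, SE 0.15, adjusted p = 5.92e-04), although the ranges over both layers overlapped. Within upper layers it was 2.32-fold higher in astrocytes (log2 difference 1.21, adjusted p = 1.54e-04), while the deep layer log2 difference of 0.19 was not called and the ranges overlapped (95% interval -0.25 to 0.64, adjusted p = 0.440). Whether the sizes in the 2 layers differ is what the interaction tests; at 1.02 on the log2 scale it was not called (SE 0.29, adjusted p = 0.547). Against bulk tissue, the log2 difference was 0.15 in astrocytes (95% interval -0.16 to 0.46, adjusted p = 0.390) and -0.55 in non-astrocytes (1.47-fold lower, adjusted p = 0.00741). Both depended on the scaling: with values scaled to each library's total, the astrocyte difference became 0.34 with an adjusted p of 0.0370 and the non-astrocyte difference -0.18 with an adjusted p of 0.290.

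The layers of each fraction did not overlap in Vldlr, and none of these layer differences was called in the main fit. Groups of 2 or 3 libraries separate easily. The share of all genes without overlap was not counted, for Vldlr or for the other members. Upper layer astrocytes averaged 3613 ± 736 and deep layer astrocytes 2532 ± 443 (SD, n = 3 each), a log2 difference of 0.51 (95% interval 0.11 to 0.91, unadjusted p = 0.0153, adjusted p = 0.401 in limma). In bulk tissue upper layers averaged 3687 ± 440 and deep layers 1979 ± 42.0 (SD, n = 2 each), a log2 difference of 0.89 (1.86-fold, 95% interval 0.41 to 1.38, limma adjusted p = 0.127). In non-astrocytes the direction was opposite, with 1566 ± 408 in upper and 2194 ± 208 in deep layers (SD, n = 2 each), a log2 difference of -0.51 (95% interval -0.99 to -0.022, limma adjusted p = 1). The bulk tissue difference was called by DESeq2 (log2 difference 0.90, adjusted p = 0.0210) but not by edgeR, and in a limma fit of bulk tissue alone (adjusted p = 0.00160). The astrocyte comparison called 18 genes (0.0797%) and none of the 4 members, of which Vldlr alone had an unadjusted p below 0.05, and neither edgeR nor DESeq2 called any of the 4. With the replicate number as a block it called 89 genes, and 188 with the block within the fraction, again none of the 4. The bulk tissue comparison called 103 genes (0.456%).

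**Figure D2:**
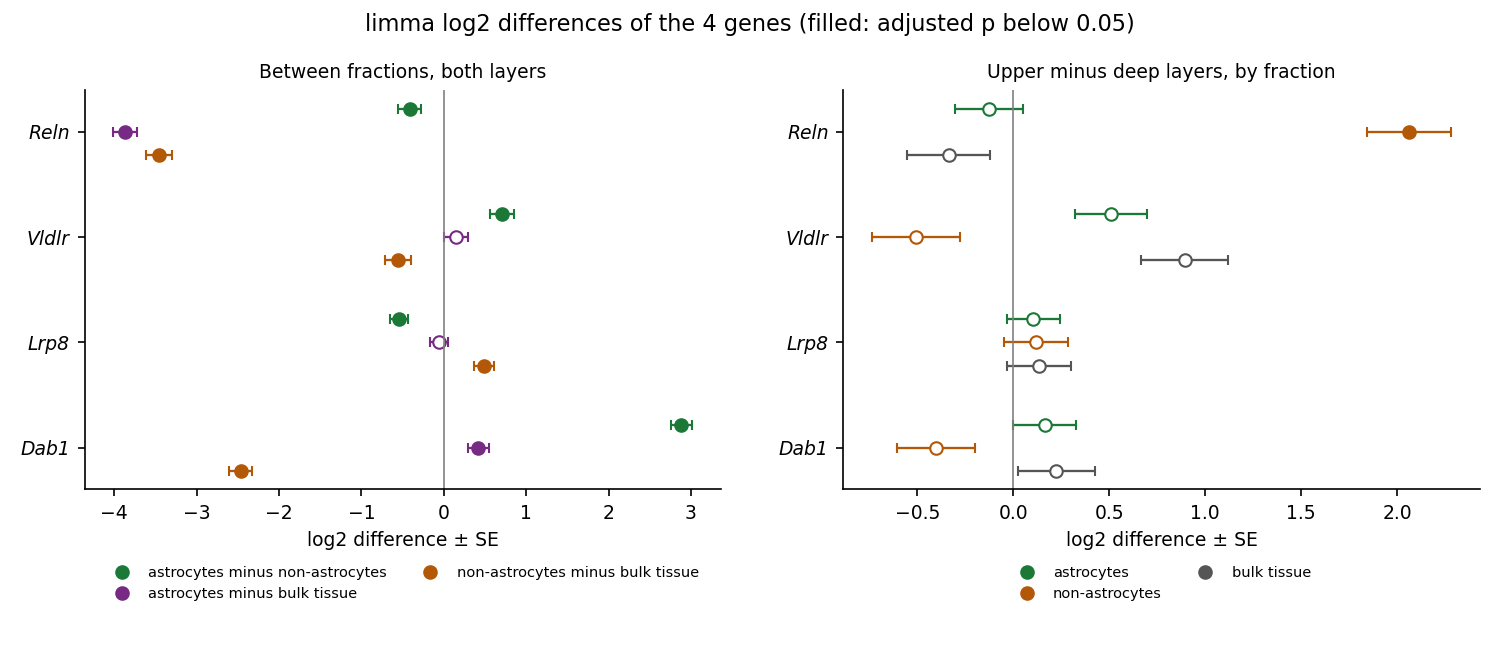
Log2 differences of Reln, Vldlr, Lrp8 and Dab1 from limma, with standard errors as bars, for the comparisons between fractions and between layers; filled points are called at an adjusted p below 0.05 and open points are not. Dab1 in astrocytes minus non-astrocytes (2.88) and Reln in astrocytes minus bulk tissue (-3.87) lie farthest from 0 in each direction, and Reln in non-astrocytes (2.06) is the only filled point among the layer differences within a fraction.

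Lrp8 (ENSMUSG00000028613, plus strand, chr4:107802261-107876840 in GRCm38) encodes the second reelin receptor, which in neurons also acts at synapses. Lrp8 had normalised read counts of 4044, 3752 and 4210 in upper layer astrocytes and 3447, 3669 and 4055 in deep layer astrocytes. Non-astrocytes had 5721 and 6020 in upper layers and 4727 and 6183 in deep layers. Bulk tissue had 4076 and 4334 in upper layers and 3823 and 3824 in deep layers. All 4 non-astrocyte libraries lay above all other libraries, and astrocytes and bulk tissue overlapped.

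Lrp8 was 1.46-fold lower in astrocytes than in non-astrocytes (log2 difference -0.55, SE 0.11, adjusted p = 3.50e-04), with nearly the same size in upper layers (-0.55, adjusted p = 0.00623) and deep layers (-0.54, adjusted p = 0.00703). The deep layer value became -0.35 (adjusted p = 0.138) without deep layer non-astrocyte replicate 2, the highest of the 14 libraries. It was 1.40-fold higher in non-astrocytes than in bulk tissue (log2 difference 0.49, SE 0.12, adjusted p = 0.00202). Between astrocytes and bulk tissue its log2 difference was -0.057 (95% interval -0.29 to 0.17, adjusted p = 0.661), a sign that turned to 0.13 when values were scaled to each library's total. No layer difference of Lrp8 was called: upper minus deep was 0.11 in astrocytes (95% interval -0.19 to 0.40), 0.12 in non-astrocytes (-0.24 to 0.47) and 0.14 in bulk tissue (-0.22 to 0.49).

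A library's size factor cancels in the ratio of the receptors, so that ratio was also compared, each level taken as counts per kilobase of annotated exon. The ratio was not among the planned comparisons. It uses the same Vldlr and Lrp8 values as above, so its tests add no independent evidence. The Vldlr to Lrp8 ratio averaged 0.823 ± 0.164 in astrocytes (SD, n = 6), 0.351 ± 0.0947 in non-astrocytes (SD, n = 4) and 0.727 ± 0.220 in bulk tissue (SD, n = 4). All 6 astrocyte libraries (0.634 to 1.11) lay above all 4 non-astrocyte libraries (0.233 to 0.452). A two-sided exact permutation test gave p = 0.00952, the smallest that 6 against 4 libraries allow, and 0.0571 after adjustment over the 6 ratio comparisons made. This test takes the libraries as independent. With the mean of the same-numbered libraries of both layers as 1 unit, 3 units against 2 still did not overlap and the exact p was 0.2, the smallest possible. Non-astrocytes also lay below bulk tissue without overlap (exact p = 0.0286, the smallest possible, adjusted 0.0857), while astrocytes and bulk tissue overlapped (exact p = 0.371, adjusted 0.371).

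By layer, the ratio was 0.939 ± 0.148 in upper and 0.706 ± 0.0674 in deep layer astrocytes (SD, n = 3 each), 0.278 ± 0.0627 in upper and 0.424 ± 0.0402 in deep layer non-astrocytes (SD, n = 2 each), and 0.914 ± 0.0697 in upper and 0.540 ± 0.0114 in deep layer bulk tissue (SD, n = 2 each). Upper layers were above deep layers in astrocytes and bulk tissue and below them in non-astrocytes, without overlap in any fraction. These groups are too small for an exact test to pass: the smallest possible p, which each comparison reached, is 0.1 for the astrocytes and 0.333 for the others. With the length of the principal transcript in place of all annotated exons, the ratios were 0.450 in astrocytes, 0.192 in non-astrocytes and 0.398 in bulk tissue, so their order holds but whether the receptors stand near equality depends on the length used.

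**Figure D3:**
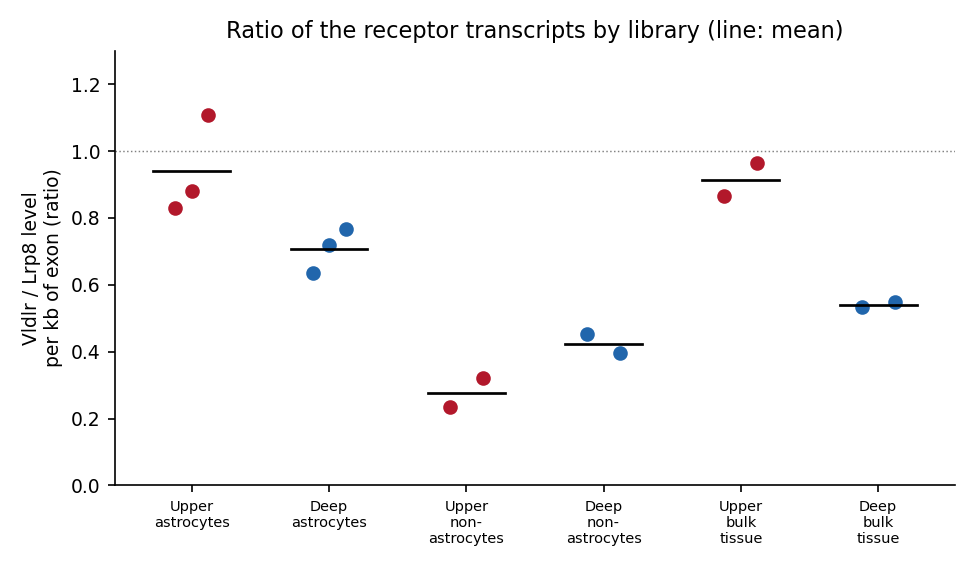
Ratio of Vldlr to Lrp8, each in normalised read counts per kilobase of annotated exon, in each of the 14 libraries (points, upper layer red and deep layer blue), by fraction and layer, with group means as lines and a dotted line at equality. The 6 astrocyte libraries (0.634 to 1.11) lie above the 4 non-astrocyte libraries (0.233 to 0.452), and bulk tissue (0.532 to 0.963) overlaps the astrocytes.

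Dab1 (ENSMUSG00000028519, plus strand, chr4:103619359-104744844 in GRCm38) encodes the adaptor that binds the receptors' cytoplasmic tails. Dab1 had normalised read counts of 2855, 3687 and 3663 in upper layer astrocytes and 2587, 3662 and 2892 in deep layer astrocytes. Non-astrocytes had 333 and 423 in upper layers and 532 and 463 in deep layers. Bulk tissue had 2444 and 2725 in upper layers and 2257 and 2159 in deep layers. All 6 astrocyte libraries lay far above all 4 non-astrocyte libraries, and 1 of them, from deep layers, lay within the range of bulk tissue.

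Dab1 was 7.38-fold higher in astrocytes than in non-astrocytes (log2 difference 2.88, SE 0.13, adjusted p = 3.40e-11), 8.98-fold in upper layers (adjusted p = 1.72e-09) and 6.06-fold in deep layers (adjusted p = 1.50e-08). Against bulk tissue it was 1.34-fold higher in astrocytes (log2 difference 0.42, SE 0.13, adjusted p = 0.0108) and 5.52-fold lower in non-astrocytes (log2 difference -2.46, SE 0.14, adjusted p = 1.12e-09). Upper minus deep layer differences of 0.16 in astrocytes (95% interval -0.19 to 0.52), -0.40 in non-astrocytes (-0.83 to 0.029) and 0.23 in bulk tissue (-0.21 to 0.66) were not called. In non-astrocytes the 2 layers did not overlap, upper being lower, and nor did they in bulk tissue, upper being higher.

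Levels of the 4 genes can be set side by side only per length. Per kilobase of annotated exon, astrocytes had 408 ± 63.3 counts of Dab1, 367 ± 27.3 of Lrp8, 305 ± 79.8 of Vldlr and 4.09 ± 0.385 of Reln (SD, n = 6). Non-astrocytes had 539 ± 62.1 of Lrp8, 187 ± 44.6 of Vldlr, 55.4 ± 10.5 of Dab1 and 6.89 ± 4.92 of Reln (SD, n = 4). Bulk tissue had 382 ± 23.2 of Lrp8, 303 ± 31.5 of Dab1, 281 ± 101 of Vldlr and 60.8 ± 11.2 of Reln (SD, n = 4). The ligand was the lowest of the 4 in every fraction. Dab1 stood near the receptors in astrocytes, near Vldlr and below Lrp8 in bulk tissue, and well below both receptors in non-astrocytes. In astrocytes the SDs of Dab1, Lrp8 and Vldlr touch, and with principal transcript lengths Lrp8 (848) stood above Dab1 (611) and Vldlr (385) per kilobase. With those lengths bulk tissue had 881 of Lrp8, 454 of Dab1 and 355 of Vldlr.

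The wider pathway was read from 58 further genes in lists of ligands, proteases, receptors, adaptors, kinases, downstream signalling proteins and turnover factors. In astrocytes against non-astrocytes, 16 were higher, 31 were lower and 11 were not called, with a median log2 difference of -0.57 beside -0.077 over all genes tested. Among all genes 29.6% were higher and 36.8% lower. Against bulk tissue, 24 were higher in astrocytes, 25 were lower and 9 were not called, with a median of -0.087 beside -0.10 over all genes, of which 28.8% were higher and 36.1% lower. No layer comparison called any of the 58 in the main limma fit. With the replicate block within the fraction, limma called 2 of the 58 between layers of bulk tissue, among 261 of all 22575 genes. In astrocytes 10 of the 58 had an unadjusted p below 0.05 between layers, edgeR called 0 and DESeq2 called 2. In non-astrocytes and bulk tissue those with an unadjusted p below 0.05 numbered 5 and 10, edgeR called 0 in each and DESeq2 called 1 and 4.

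Among the other ligands of the receptors, 3 of 5 were higher in astrocytes than in non-astrocytes, 1 was lower and 1 was not called, and all 5 were higher in astrocytes than in bulk tissue. Clu, the secreted chaperone clusterin, averaged 41084 ± 10921 in astrocytes (SD, n = 6), 1194 ± 101 in non-astrocytes (SD, n = 4) and 9556 ± 1250 in bulk tissue (SD, n = 4), 33.5-fold higher in astrocytes than in non-astrocytes (limma adjusted p = 7.93e-13). Apoe, the main apolipoprotein of the brain, was 10.9-fold higher in astrocytes than in non-astrocytes and 3.82-fold higher than in bulk tissue. Thbs1, a secreted thrombospondin, was 3.77-fold lower in astrocytes than in non-astrocytes and 3.71-fold higher than in bulk tissue.

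Of the 5 proteases that cut reelin, 2 were higher and 2 lower in astrocytes than in non-astrocytes. Adamts5 averaged 696 ± 118 in astrocytes (SD, n = 6), 142 ± 15.3 in non-astrocytes (SD, n = 4) and 91.0 ± 25.8 in bulk tissue (SD, n = 4), 4.83-fold higher in astrocytes than in non-astrocytes (log2 difference 2.27). Adamts3, which makes the cut near the amino terminus that inactivates reelin, was 3.31-fold higher in astrocytes than in non-astrocytes but 2.44-fold lower than in bulk tissue. Adamts4, whose exons overlap another gene, averaged 38.6 ± 17.4 in astrocytes (SD, n = 6) and 1944 ± 631 in non-astrocytes (SD, n = 4), a log2 difference of -5.67.

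Among 8 other members of the receptor family, 4 were higher in astrocytes than in non-astrocytes and 1 was lower, and 6 were higher and 1 lower than in bulk tissue. Sorl1, a sorting receptor of the endosome, was 12.6-fold higher in astrocytes than in non-astrocytes. Lrp5, a Wnt co-receptor, was 3.50-fold lower in astrocytes than in non-astrocytes and 2.08-fold higher than in bulk tissue. Among 6 genes of receptor folding, turnover and shedding, 2 were higher and 4 lower in astrocytes than in non-astrocytes, and 2 were higher and 1 lower than in bulk tissue. Mylip, the ubiquitin ligase that sends Vldlr and Lrp8 to degradation, averaged 125 ± 26.6 in astrocytes (SD, n = 6), 1398 ± 69.0 in non-astrocytes (SD, n = 4) and 467 ± 103 in bulk tissue (SD, n = 4), 11.3-fold lower in astrocytes than in non-astrocytes (limma adjusted p = 9.08e-12). Lrpap1, the chaperone of these receptors, was 1.82-fold higher.

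The other adaptors with a PTB domain, the fold by which Dab1 binds the receptors, numbered 4. Of these, 3 were lower and 1 was higher in astrocytes than in non-astrocytes, where Dab1 was higher. Numb, a regulator of endocytosis and Notch, averaged 825 ± 33.1 in astrocytes (SD, n = 6), 3612 ± 435 in non-astrocytes (SD, n = 4) and 1596 ± 93.3 in bulk tissue (SD, n = 4), 4.35-fold lower in astrocytes than in non-astrocytes. Dab2, the nearest relative of Dab1 and an endocytic adaptor, was 2.94-fold lower in astrocytes than in non-astrocytes and 2.18-fold higher than in bulk tissue. Numbl, a relative of Numb, was 2.02-fold higher in astrocytes than in non-astrocytes. Exons of Numb, Numbl and Dab2, and of Thbs1, Sorl1, Yes1 and Cul5 in the other lists, overlap other genes, and whether the counting used strand is not given in the sources used here.

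Of the Src family kinases that phosphorylate Dab1, Fyn averaged 1682 ± 112 in astrocytes (SD, n = 6), 8171 ± 2314 in non-astrocytes (SD, n = 4) and 2436 ± 168 in bulk tissue (SD, n = 4), 4.72-fold lower in astrocytes than in non-astrocytes (log2 difference -2.24). Yes1 was 1.91-fold lower in astrocytes than in non-astrocytes and Src 1.43-fold higher. Among 23 genes of signalling below Dab1, 2 were higher, 16 lower and 5 not called in astrocytes against non-astrocytes, and 5 were higher, 15 lower and 3 not called against bulk tissue. Cdk5r1, the activator p35 of the kinase Cdk5, averaged 24.4 ± 10.7 in astrocytes (SD, n = 6), 618 ± 88.6 in non-astrocytes (SD, n = 4) and 3926 ± 1226 in bulk tissue (SD, n = 4). Its log2 difference was -4.73 in astrocytes minus non-astrocytes and -7.35 in astrocytes minus bulk tissue. Cdh2, the adhesion protein N-cadherin, was 4.15-fold higher in astrocytes than in non-astrocytes and 3.86-fold higher than in bulk tissue. Nck2, an adaptor that binds phosphorylated Dab1, was 5.92-fold lower in astrocytes than in non-astrocytes.

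Of 4 genes that turn over phosphorylated Dab1, 1 was higher and 2 were lower in astrocytes than in non-astrocytes, and 2 were higher and 1 lower than in bulk tissue. The ubiquitin ligase scaffold Cul5 was 1.24-fold higher and its RING partner Rnf7 1.69-fold lower in astrocytes than in non-astrocytes. Within upper layers and within deep layers Rnf7 was called and Cul5 was not. Socs7, an adaptor that brings Dab1 to the ligase, averaged 685 ± 79.5 in astrocytes (SD, n = 6), 669 ± 82.1 in non-astrocytes (SD, n = 4) and 3306 ± 652 in bulk tissue (SD, n = 4), 4.78-fold lower in astrocytes than in bulk tissue. The members and the lists were chosen with earlier results of these data known, so these counts are descriptions.

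**Figure D4:**
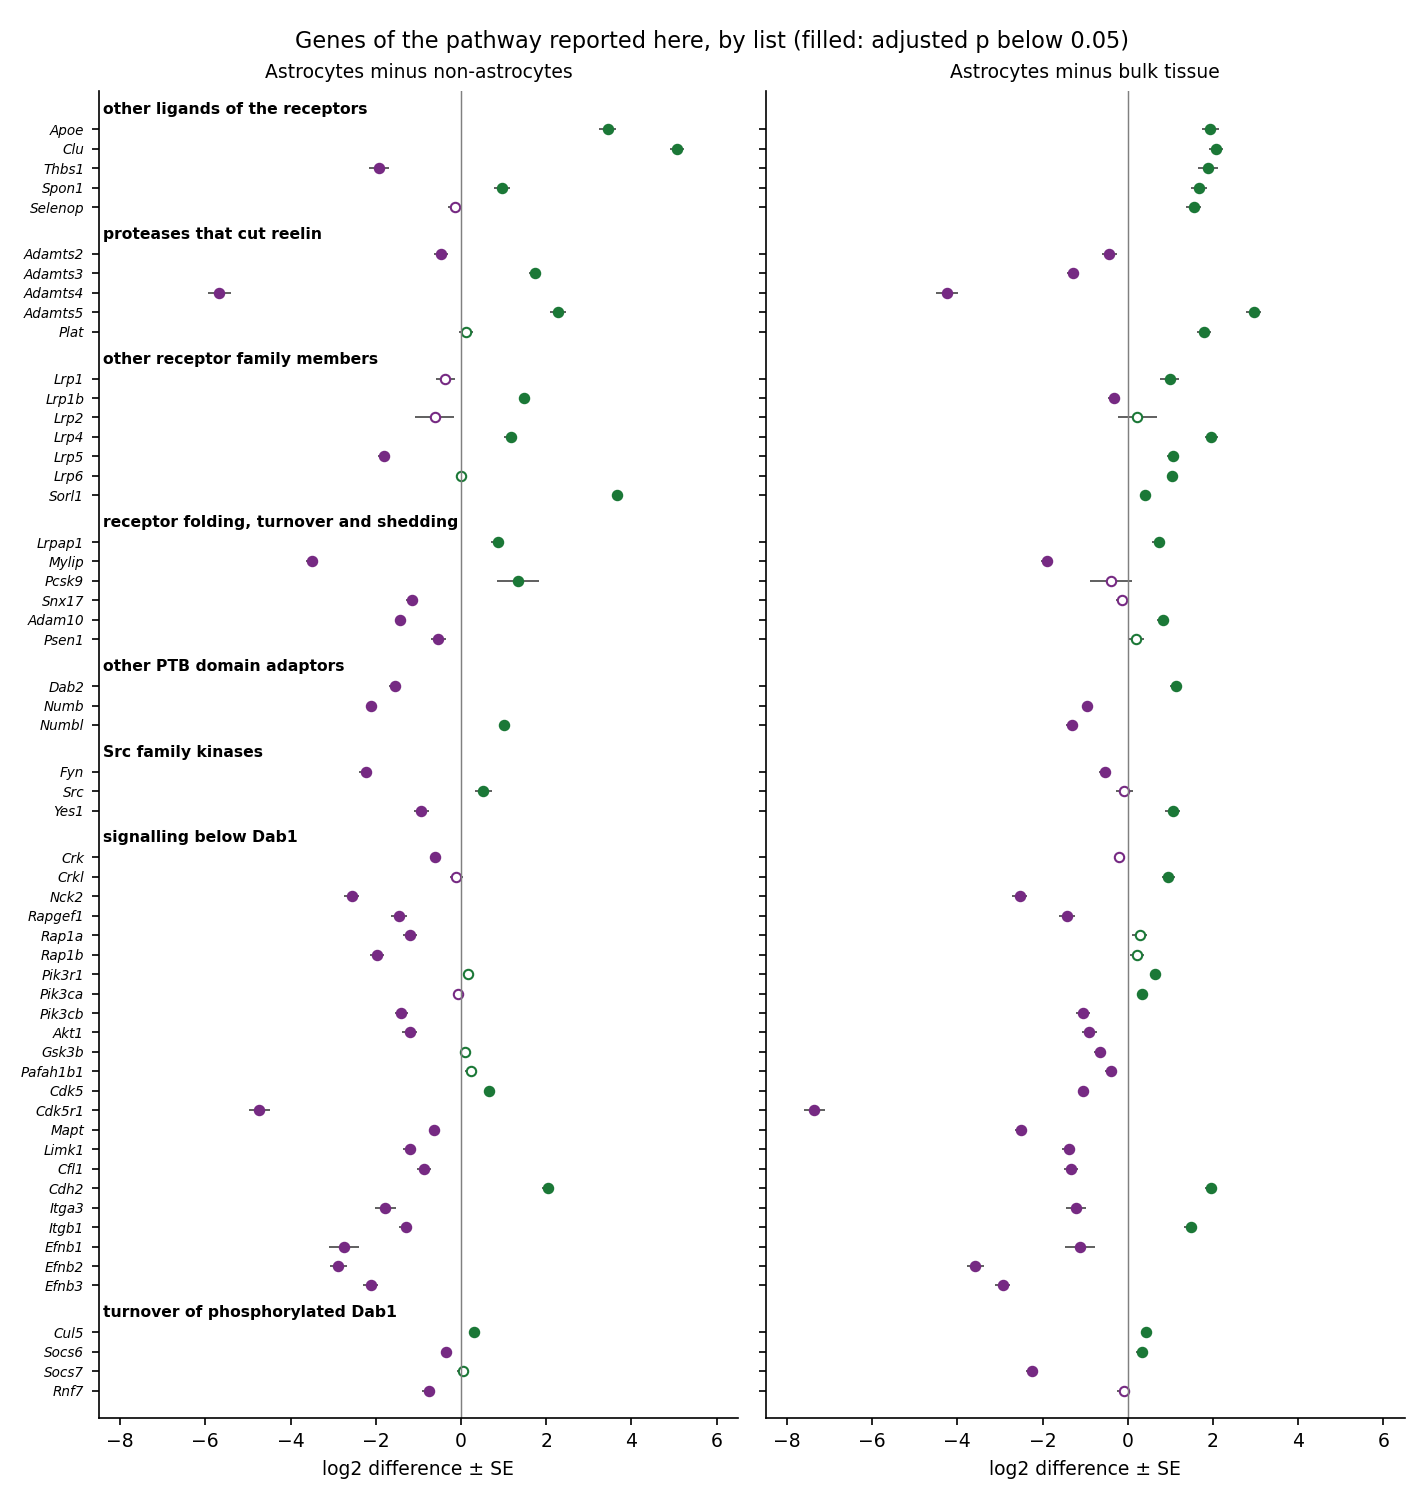
Log2 differences of the pathway genes reported here, by list, in astrocytes minus non-astrocytes and in astrocytes minus bulk tissue, with standard errors as bars; green points are above 0 and purple below, and filled points are called. Clu (5.07 against non-astrocytes) lies farthest to the positive side, and Cdk5r1 (-7.35 against bulk tissue) farthest to the negative side.

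The genes most like each member in pattern were found over the 6 group means, centred on the log2 scale, by the root mean square of the differences among 13328 genes. For Reln they were Cdkl4 (0.39), Cntnap5a (0.40), Coch (0.41), Cntn5 (0.42) and Cnih3 (0.44), where the median gene stood at 1.96. Cntnap5a had means of 64.4 and 81.3 in upper and deep layer astrocytes, 151 and 80.2 in upper and deep layer non-astrocytes, and 1412 and 1252 in upper and deep layer bulk tissue. Its ratio of upper to deep layer non-astrocytes was thus smaller than that of Reln. For Dab1 they were Abat (0.18), Gpm6b (0.19), Ank2 (0.20), Arhgef4 (0.21) and Adgrb3 (0.21), with the median gene at 1.40. Abat, which degrades GABA, had 12839 and 9941 in upper and deep layer astrocytes, 1212 and 1439 in upper and deep layer non-astrocytes, and 6511 and 7306 in upper and deep layer bulk tissue.

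For Vldlr they were Fbxo10 (0.14), Prss36 (0.19), Msl3l2 (0.19), Rsph9 (0.20) and Mlycd (0.20), with the median gene at 0.74. For Lrp8 they were Nup214, Ranbp10, Parp2, Kdm2a and Baz1b (0.043 to 0.059), with the median gene at 0.64. The closest matches of Lrp8 lay nearer to it than those of Reln did to Reln. By the largest difference over the 6 groups in place of the root mean square, 3 of the 5 genes stayed for Reln and Lrp8 and 2 of the 5 for Vldlr and Dab1.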

How the data were processed

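RNA-seq was analysed in 14 libraries, grouped by title; for upper layer astrocytes and non-astrocytes another label names bulk tissue instead. GRCm38 and the tools DESeq2, HTSeq 0.6.1p1, TopHat2 2.0.11 and CASAVA are named in the submitters' processing notes. The deposited signal is each gene's reads over the library's size factor: 100% of values were whole multiples of 1 read (tolerance 1e-06). This held in upper layer bulk tissue replicate 2 too, where the value of 1 read lies close to 1. limma 3.58.1 (R 4.3.3; trend, robust) was fitted on log2(value + 1) as 6 group means (8 residual degrees of freedom), over genes with a value of at least 10 in at least 2 libraries; edgeR 4.0.16 and DESeq2 1.42.0 on recovered reads were alternatives. Ratios were tested with scipy 1.17.1. The fit was tested on simulated data. Of the identifiers, 32007 matched GENCODE M21, which gave symbols, coordinates and lengths. Members and lists were chosen with earlier results of these data known. Named genes are the 4 members and, per list and comparison, up to 3 called genes with the smallest p, from which the text takes examples; some are not reported here. Same-numbered libraries of the 2 layers deviated together in astrocytes (correlations 0.203, 0.149 and 0.171) and in non-astrocytes (0.436). In bulk tissue the correlation was 0.0937. In groups of 2 libraries the deviations mirror each other, so non-astrocytes and bulk tissue each hold a single such value. The main fit did not pair same-numbered libraries, so its layer p-values ignore any pairing. Its comparisons between fractions likewise take the libraries of both layers as independent. Where same-numbered libraries deviate together, the p-values between fractions may be too small. The block within the fraction was fitted for layer comparisons only. Fits with the replicate number as a block were alternatives only. Reln rests on the fewest reads of the 4 genes.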

Additional observations from a re-analysis of the deposited data

Results flagged for a closer look

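The layer difference of Reln differed between fractions in both tests that set non-astrocytes against another fraction. Both tests use the same non-astrocyte libraries, so they are not independent. Upper minus deep was smaller in astrocytes than in non-astrocytes (log2 interaction -2.19, limma adjusted p = 0.0285), with 2 of 2 upper layer non-astrocyte libraries above both deep layer ones. It was larger in non-astrocytes than in bulk tissue (log2 interaction 2.40, limma adjusted p = 0.0142), where both upper layer libraries lay below both deep layer ones; that comparison was added after the values were seen. The first call was lost in 9 of 10 fits that left out 1 library, when values were scaled to each library's total (adjusted p = 0.110) and in the fit of the compared groups alone (adjusted p = 0.650), and the second in 7 of 8 fits that left out 1 library. No library of the 12 sets of 4 or more examined stood apart from the others. Each set pooled the upper and deep layer libraries of a fraction. A layer difference, as for Reln in non-astrocytes, widens the range and can hide such a library.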

How the results depend on the processing

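Of 696 alternative values for the 4 genes, 647 kept their direction and side of the threshold, 26 lost a call, 7 gained one and 16 changed sign; the cause was not tested. Fits of the compared groups alone lost the calls of Reln in astrocytes minus non-astrocytes (-0.41, adjusted p = 0.0553), upper minus deep non-astrocytes (2.06), its layer difference in astrocytes minus non-astrocytes (-2.19) and in deep layers (0.68), and of Lrp8 in deep layers (-0.54). Scaling to totals, which moved the median of all genes by -0.18 in astrocytes minus non-astrocytes, 0.19 in astrocytes minus bulk tissue and 0.37 in non-astrocytes minus bulk tissue, lost the Reln layer difference in astrocytes minus non-astrocytes (-2.31, adjusted p = 0.110), Reln in deep layers (0.56) and Vldlr in non-astrocytes minus bulk tissue (-0.18), gained Vldlr in astrocytes minus bulk tissue (0.34), and turned the uncalled Lrp8 values of astrocytes minus bulk tissue (0.13) and of the layer difference in non-astrocytes minus bulk tissue (0.11). Vldlr in upper minus deep bulk tissue was called by DESeq2 (0.90), in the fit alone (0.89), with the replicate block (0.89) and with the replicate block within the fraction (0.89). Its layer difference in non-astrocytes minus bulk tissue was called by DESeq2 (-1.38, adjusted p = 0.0393) and with the replicate block (-1.40, adjusted p = 0.0446). The block changed no other member's call.

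Genes called in upper minus deep astrocytes numbered 142 with DESeq2, 1 in the fit alone, 89 with the replicate block and 188 with the block within the fraction. In upper minus deep non-astrocytes they numbered 2 with a pseudocount of 4, 13 with no filter, 7 with edgeR, 139 with DESeq2, 0 in the limma fit alone, 3 with the block and 33 with the block within the fraction. In bulk tissue they numbered 203 with a pseudocount of 4, 167 with edgeR, 428 with DESeq2, 1093 in the fit alone, 168 with the block and 261 with the block within the fraction. For the layer difference in astrocytes minus non-astrocytes they numbered 0 with total scaling, 59 with DESeq2, 0 in the fit alone, 3 with the block and 4 with the block within fractions. In astrocytes minus bulk tissue they numbered 66 with a pseudocount of 4, 49 with edgeR, 200 with DESeq2, 52 with the block and 112 with the block within fractions, and in non-astrocytes minus bulk tissue 7 with a pseudocount of 0.5 and 53 with DESeq2.

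Leaving out 1 library at a time gave 2.02 to 2.11 for Reln in upper minus deep non-astrocytes, -2.28 to -2.14 and 2.22 to 2.58 for its layer differences in astrocytes minus non-astrocytes and in non-astrocytes minus bulk tissue, and -0.73 to -0.35 for Lrp8 in deep layers. Uncalled values that changed sign were Lrp8 in upper minus deep non-astrocytes (-0.075 to 0.31), its layer differences in astrocytes minus non-astrocytes (-0.21 to 0.18), astrocytes minus bulk tissue (-0.085 to 0.032) and non-astrocytes minus bulk tissue (-0.21 to 0.18), and Dab1's in astrocytes minus bulk tissue (-0.17 to 0.079). Genes called ran from 12 to 56 in upper minus deep astrocytes, 0 to 5 in non-astrocytes and 11 to 20 in bulk tissue, and for the layer differences from 0 to 2 in astrocytes minus non-astrocytes, 0 to 72 in astrocytes minus bulk tissue and 0 to 8 in non-astrocytes minus bulk tissue. Where a fit left a group with 1 library, that library was assumed to vary like the others.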
